A study of Mus musculus with 196 samples.

Results

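The DNA replication machinery was followed through 194 libraries of mouse germ cells and germ cell-like cells, as 40 genes listed by name out of 25706 endogenous genes in the deposited table. All 40 were in the table, none was at 0 reads in any library, and each passed the filter on low values in every day 9 comparison below. Together they took 0.486 to 1.02% of the reads of a cultured library. The unit throughout is RPM, which scales the reads of a gene to one common total of reads assigned to endogenous genes in each library, from sequencing of RNA 3' ends.

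The cells were primordial germ cell-like cells (PGCLCs), germ cell precursors derived in culture from embryonic stem cells of strain 129S1:C57BL/6=1:1 that all carry the reporters Prdm1-mVenus Tg/0 and Dppa3-ECFP Tg/0. H18 (27 libraries) is the parental clone. OE_A2 (64 libraries) adds piggyBac transgenes in which a tetO/mCMV promoter drives the Zglp1 coding sequence with mCherry and an EF1a promoter drives rtTA, so that doxycycline (Dox) induces ZGLP1, a GATA-like zinc finger protein of the oogenic fate. OESko_A11 (16 libraries) carries the same transgenes and is Stra8-/-, lacking the retinoic acid-induced meiotic gatekeeper STRA8. Zko_E5 and Zko_G10 are Zglp1-/- (26 libraries each) and Sko_B6 and Sko_F6 are Stra8-/- (16 each). Each line is 1 clone, no Dox-treated line lacking the transgene was analysed here, and H18 has no control after day 4. After 4 days of induction, cells with the Prdm1 reporter were sorted onto m220 feeder cells, and cultured cells were sorted for the Dppa3 reporter before RNA extraction. Cultures received nothing more (control), BMP2, retinoic acid (RA), both (B2RA), Dox, Dox with RA (DoxRA), the compound labelled BMS with or without Dox (BMSDox), or serum-free medium with the compound labelled WIN, with or without Dox (SerumMinusWINDox and SerumMinusWIN). OE_A2 also had serum-free medium without WIN (SerumMinus), with 1 library per day, which entered the fit but no comparison. Days count the expansion culture. Day 9 groups used here hold 2 libraries each. Single libraries came from embryos of strain ICR:C57BL/6=1:1, namely E9.5 primordial germ cells carrying Dppa3-EGFP and oocytes at E14.5 and E15.5 carrying Ddx4-RFP. The labels do not say that replicates are separate cultures, so p-values measure the spread between libraries, which may be technical.

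Replication starts at origins bound by the origin recognition complex, onto which CDC6 and CDT1 load the ring-shaped MCM helicase before S phase. GINS and CDC45 then turn MCM into an active helicase, polymerase alpha with primase starts each strand, and polymerases delta and epsilon extend them with the PCNA clamp. Many of these genes are transcribed under E2F control as cells enter S phase. Germ cells entering meiosis pass a last, premeiotic S phase before they stop dividing, which in the fetal ovary comes before the oocyte stages sampled here.

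Libraries held 877040 to 5196593 reads, so 1 read was worth 0.192 to 1.14 RPM, and 11850 to 16957 genes were detected. The mCherry row of the transgene averaged 284 RPM in OE_A2 control, 1292 in Dox and 3165 in DoxRA at day 9, and 176 and 4841 RPM in OESko_A11 control and DoxRA. In DoxRA before day 9 it was lower in OESko_A11 than in OE_A2, at 499.8 against 1503 RPM at day 4, 499.6 against 2001 at day 5 and 1321 against 3388 at day 7. Reads of Zglp1 (up to 32.7 RPM at day 9 in the Zglp1-/- clones) and Stra8 (up to 687.7 RPM in the Stra8-/- clones) remained in the knockouts. The labels do not give the deleted parts, so these 3' reads do not check the genotypes. Summed over 10 germ cell markers, day 9 libraries held 1073 to 3701 RPM with no marker at 0. Summed over 10 feeder and stroma markers, they held 87.8 to 927 RPM, and 8 gonadal soma markers summed to 5.49 to 199.6 RPM with Amh at 0 in every day 9 group. In bulk RNA, fewer cells of a type and less RNA per cell cannot be told apart. The labels name 2 extraction protocols, with 22 and 172 libraries. All day 9 cultures fall under the second. In OE_A2 the Dox and DoxRA libraries of days 4 to 7 differ in protocol from their controls, 1 excepted by the match of its title.

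Promoters of 32 of the 40 members were in a RefSeq table of windows from 250 bases before to 50 after the start of each gene (GRCm38.p6), with 40 windows in all. The E2F motif TTTNNCGC, searched on both strands, was found in 14 of the 32 members (43.8%) and in 5.93% of 27025 genes. By window, the shares were 35.0% of the members' and 5.17% of all 32851. CCAAT lay in 21 members (65.6%, against 41.1% of genes), TTTGAA in 5 (15.6%, against 20.2%) and CNCCTCAG in 2 (6.25%, against 9.12%). An E2F match overlapped CCAAT in 1 window, that of Mcm7, and overlapped neither of the other motifs. The 5 windows below are shown because they belong to the members with an E2F match whose day 9 responses were largest on average. Gins3 is the one that was higher, and the other 4 were lower, so the same letters lie in the windows of genes that moved in opposite directions. Mcm7 has 2 windows, and the 1 with a match is shown. Capitals mark TTTNNCGC or its reverse complement. All run 5' to 3' along the gene's own strand. The window of Gins3 is at chr8:95633309-95633608 (plus strand), that of Pola1 is at chrX:93632106-93632405 (minus strand), that of Cdt1 is at chr8:122567765-122568064 (plus strand), that of Mcm7 is at chr5:138171834-138172133 (minus strand), that of Pole2 is at chr12:69228141-69228440 (minus strand).
Gins3: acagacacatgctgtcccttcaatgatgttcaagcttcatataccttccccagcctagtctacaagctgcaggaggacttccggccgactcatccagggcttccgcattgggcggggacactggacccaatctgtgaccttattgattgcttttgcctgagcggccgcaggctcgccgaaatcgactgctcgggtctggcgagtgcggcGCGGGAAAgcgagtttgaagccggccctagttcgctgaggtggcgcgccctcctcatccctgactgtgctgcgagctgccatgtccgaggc
Pola1: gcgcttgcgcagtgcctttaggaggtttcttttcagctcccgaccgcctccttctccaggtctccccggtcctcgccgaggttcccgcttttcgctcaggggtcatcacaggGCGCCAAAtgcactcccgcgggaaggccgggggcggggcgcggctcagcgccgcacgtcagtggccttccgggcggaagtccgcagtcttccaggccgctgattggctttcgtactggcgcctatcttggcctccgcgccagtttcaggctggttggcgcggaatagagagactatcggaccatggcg
Cdt1: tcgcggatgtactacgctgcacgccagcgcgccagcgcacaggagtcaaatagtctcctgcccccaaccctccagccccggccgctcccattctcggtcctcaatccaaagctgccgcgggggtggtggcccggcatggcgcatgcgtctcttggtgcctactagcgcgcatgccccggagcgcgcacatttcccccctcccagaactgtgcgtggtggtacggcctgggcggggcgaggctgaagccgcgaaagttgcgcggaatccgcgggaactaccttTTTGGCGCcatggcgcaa
Mcm7: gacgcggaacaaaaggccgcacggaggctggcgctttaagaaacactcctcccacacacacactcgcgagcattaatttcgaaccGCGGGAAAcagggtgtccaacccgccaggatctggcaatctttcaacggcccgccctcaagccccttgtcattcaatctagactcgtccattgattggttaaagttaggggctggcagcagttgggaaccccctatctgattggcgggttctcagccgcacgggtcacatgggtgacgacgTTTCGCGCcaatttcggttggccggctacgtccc
Pole2: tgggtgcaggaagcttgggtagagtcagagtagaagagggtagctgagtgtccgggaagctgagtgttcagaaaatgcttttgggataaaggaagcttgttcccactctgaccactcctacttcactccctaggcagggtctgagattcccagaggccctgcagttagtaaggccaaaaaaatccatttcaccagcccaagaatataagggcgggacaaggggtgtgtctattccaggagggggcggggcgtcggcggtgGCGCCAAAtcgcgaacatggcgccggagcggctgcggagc
The match begins 41 bases before the start of Gins3, 138 before that of Pola1, 32 after that of Cdt1 and 10 after that of Pole2, and in Mcm7 at 165 before and 16 after. Over the 6 day 9 responses described next, the motif was present in 6 of 12 members called lower, 4 of 5 called higher that have a window and 4 of 15 called in none. These are letter matches, not measured binding.

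A gene was called when limma's adjusted p over all genes tested was under 0.05 and its change was at least 1 on the log2(RPM + 1) scale, which understates the change of low genes. The 6 responses were Dox, DoxRA, SerumMinusWINDox and BMSDox in OE_A2, DoxRA in OESko_A11 and B2RA against BMP2 in H18. Dox and DoxRA share their control libraries. Over these, 12 members were called lower at least once, 6 higher, none both ways and 22 in no response. The 18 called members are 45.0% of all members, while 57.0% of the genes tested in any of the 6 were called at least once, 25.3% lower and 32.8% higher, so the members' share was below that of genes at large. The uncalled members were Orc2, Orc3, Orc5, Orc6, Gmnn, Mcm4, Mcm6, Cdc45, Gins1, Gins2, Gins4, Pcna, Rfc1, Rfc2, Rfc3, Rfc4, Rfc5, Pold1, Prim1, Prim2, Rpa3 and Fen1. Gins3 and Pole were the members with a positive change in all 6, each called in 5, and 13 members had a negative change in all 6.

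**Figure D1:**
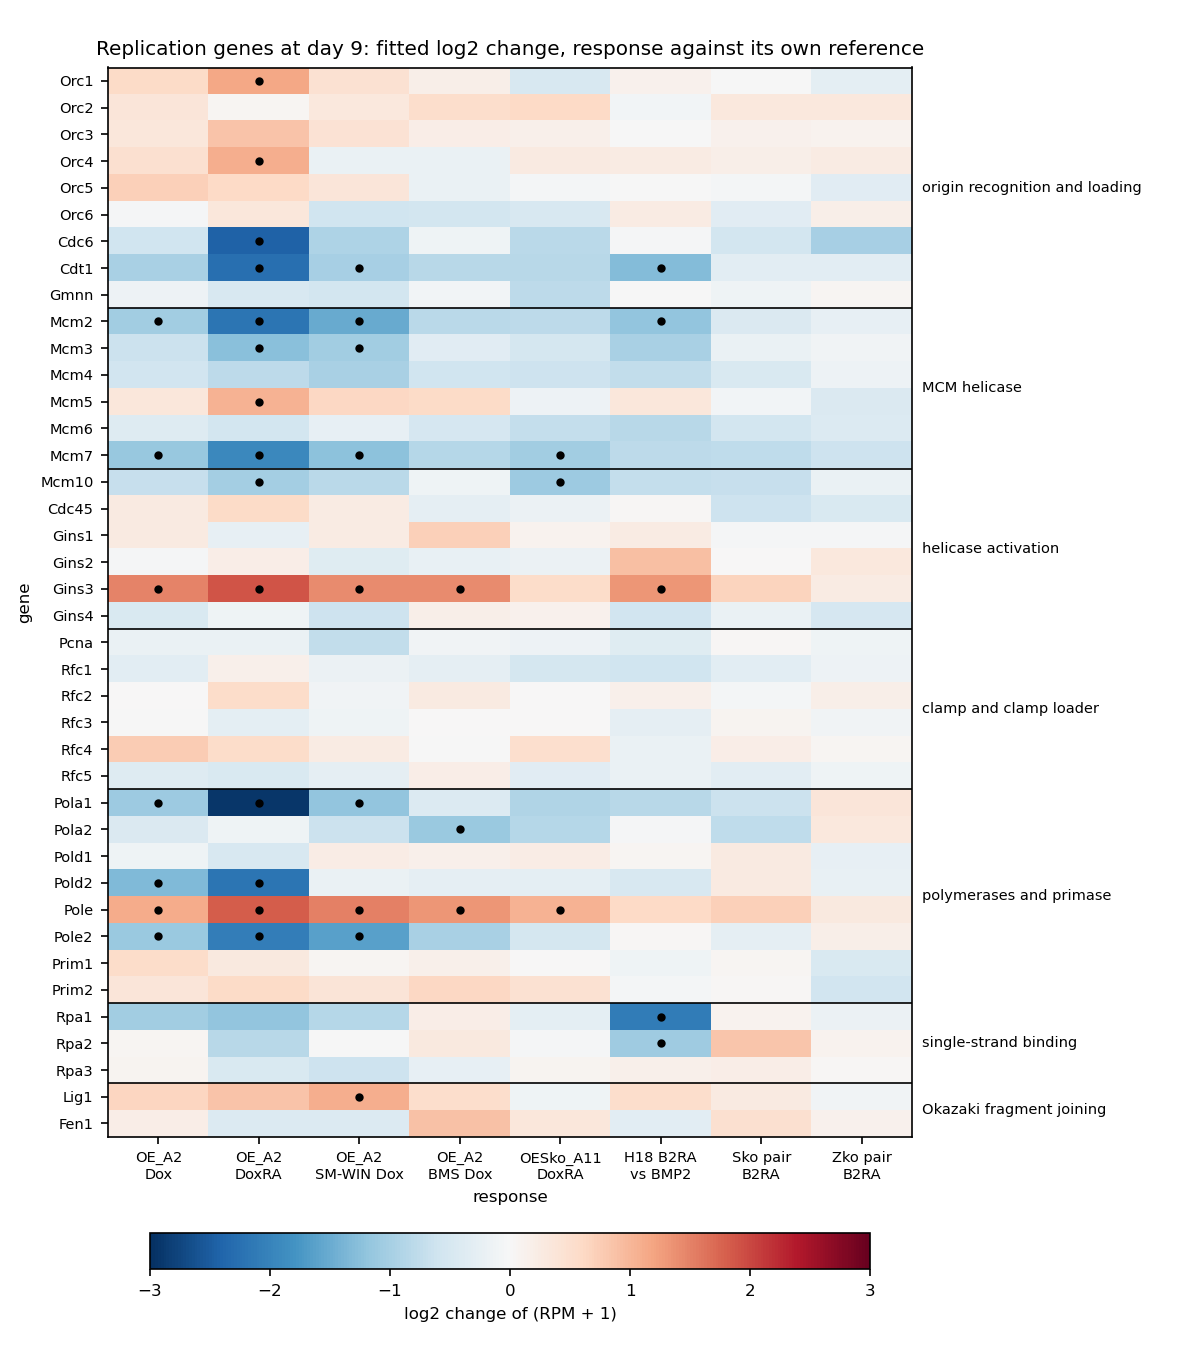
Log2 change of each of the 40 members (rows, grouped by role), from blue (lower) to red (higher), with dots on called members. Columns are the 6 day 9 responses and B2RA against control at day 9 in the Stra8-/- and Zglp1-/- pairs of clones. SM-WIN Dox stands for SerumMinusWINDox. Mcm2 and Mcm7 are dotted in 4 of the 6 responses and Gins3 and Pole in 5.

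Of the 6 responses, ZGLP1 induction with RA gave the largest member changes. Against control, DoxRA in OE_A2 had 9 members lower and 5 higher. All-gene calls reached 48.2%, with 22.5% lower and 25.6% higher, and the members' 35.0% (14 of 40) was below that share. The members' median change was -0.22 and that of all genes tested 0.11. The members' summed level was 5064.3 and 5642.8 RPM in DoxRA and 5892.5 and 6181.1 RPM in control. By role, the median ran from -1.01 for the MCM helicase and -0.83 for single-strand binding, over -0.31 for polymerases and primase, -0.02 for the clamp and its loader and 0.04 for helicase activation, to 0.22 for Okazaki fragment joining and 0.35 for origin recognition and loading.

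Germ cell markers moved as well in DoxRA, where limma called 7 of the 9 tested lower and 2 higher. Dppa3, whose reporter was used for the sort, was at 777 to 955 RPM in control and 2.39 to 4.62 in DoxRA, and Dazl, an RNA-binding protein of germ cells, made up most of the markers' sum at 2191 to 2312 RPM. Of the markers tested, 4 were lower and 2 higher in Dox, 5 and 1 in SerumMinusWINDox, 2 and 2 in BMSDox, 4 and 1 in OESko_A11 DoxRA and 7 and 0 in H18 B2RA. Their part in the members' changes was not tested.

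Most subunits of the MCM ring were at the low end. Mcm2, a subunit of the helicase (chromosome 6: 88883474 to 88898780, minus strand, GENCODE annotation of mm10), stood at 413 and 362 RPM in control, 179 and 193 in Dox and 86.6 and 80.5 in DoxRA. The 3 groups did not overlap, and Mcm2 fell by 2.20 ± 0.16 (SE, n = 2 per group) in DoxRA with a limma adjusted p of 1.4e-22. Mcm7 stood at 456 and 434 RPM in control and 137 and 98.8 in DoxRA, a change of -1.92 ± 0.20 (adjusted p = 1.9e-14), and its 3' end overlaps Cops6 on the other strand. Mcm3, at 269 and 260 RPM in control and 110 and 111 in DoxRA, also fell. Mcm4 (-0.78 ± 0.20, adjusted p = 0.00054) and Mcm6 (-0.54 ± 0.21, adjusted p = 0.023) passed the p threshold but not the size, with Mcm4 at 206 and 202 RPM in control against 114 and 124.

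Mcm5, the remaining subunit of the same ring (chromosome 8: 75109569 to 75128439, plus strand), went the other way. It stood at 244 and 203 RPM in control, 288 and 280 in Dox and 431 and 491 in DoxRA, with no overlap between groups. Its change in DoxRA was 1.04 ± 0.21 (limma, adjusted p = 7.8e-06, n = 2 per group). With TMM scaling, with edgeR, without control replicate 2 or without DoxRA replicate 2 Mcm5 was no longer called, since its change came under 1 (0.87 at the least over all alternatives), but no alternative turned its direction. In SerumMinusWINDox Mcm5 was at 423 and 436 RPM against 302 and 254 (0.63 ± 0.21, adjusted p = 0.012, limma) and in BMSDox at 349 and 306 against 220 and 220 (0.57 ± 0.21, adjusted p = 0.026), both under the size threshold. Its change was -0.15 ± 0.21 (adjusted p = 0.63) in OESko_A11 DoxRA and 0.35 ± 0.21 (adjusted p = 0.22) in H18 B2RA.

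**Figure D2:**
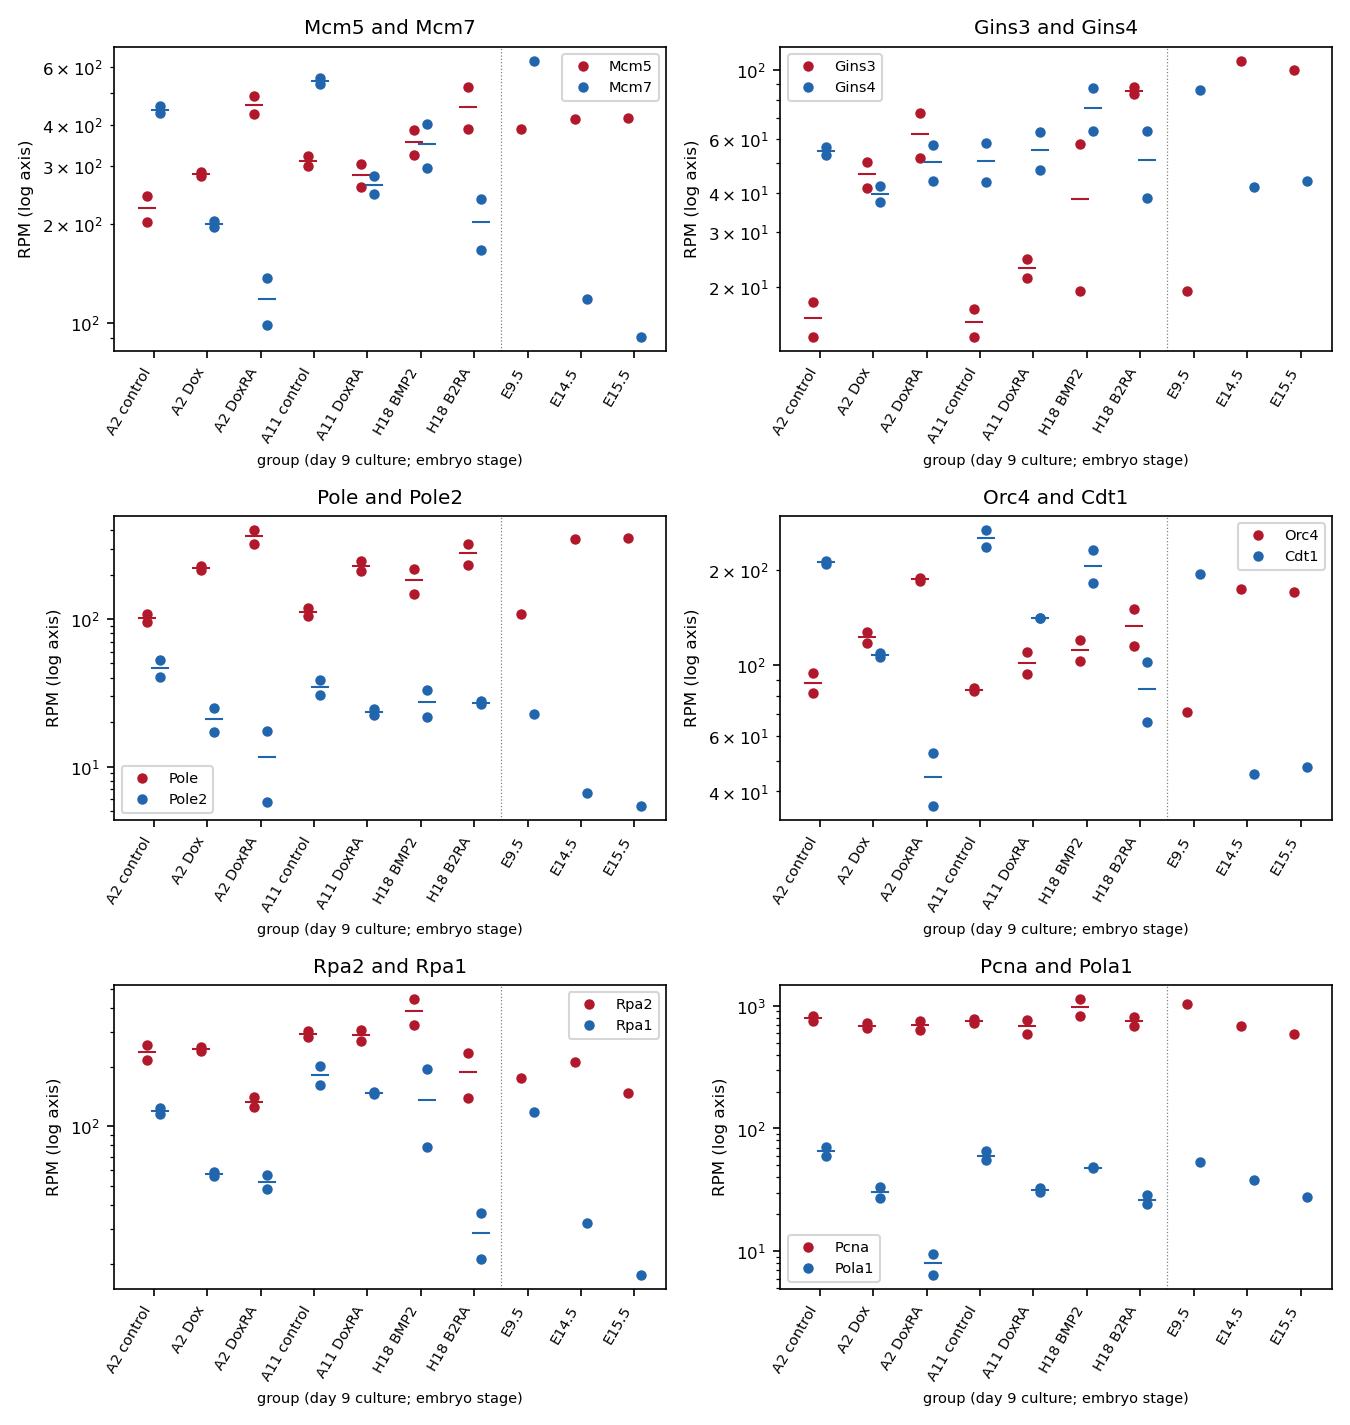
RPM on a log axis, 1 point per library. Panels pair Mcm5 with Mcm7, Gins3 with Gins4, Pole with Pole2, Orc4 with Cdt1, Rpa2 with Rpa1 and Pcna with Pola1. Groups are day 9 control, Dox and DoxRA of OE_A2, control and DoxRA of OESko_A11, BMP2 and B2RA of H18, and the embryo libraries. Mcm7 and Pola1 lie lower in the DoxRA libraries of OE_A2 than in the controls, while Mcm5, Gins3 and Pole lie higher.

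Origin recognition and loading divided by function. Cdc6, the loader that joins the origin complex, stood at 47.8 and 41 RPM in control, 29.2 and 28.2 in Dox and 5.2 and 10.4 in DoxRA. It fell by 2.43 ± 0.32 in DoxRA (limma, adjusted p = 1.9e-10), while its change in Dox, -0.61 ± 0.32 (adjusted p = 0.14), was not called. Cdt1, the other loader, went from 210 and 213 RPM to 52.9 and 35.9 (-2.25 ± 0.20, adjusted p = 5.6e-18). Its 3' end lies within a readthrough gene model on the same strand, so its reads could be divided with that gene. Gmnn, whose protein geminin holds CDT1 inactive, was at 201 and 144 RPM in control and 107 and 139 in DoxRA (-0.47 ± 0.24, adjusted p = 0.077).

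The origin recognition subunits had positive changes. Orc1, at 50.6 and 56.1 RPM in control and 109 and 132 in DoxRA, rose by 1.16 ± 0.23 (limma, adjusted p = 1.1e-05). Orc4 rose from 81.6 and 94.5 to 185 and 189 RPM (1.08 ± 0.30, adjusted p = 0.0012), a call that was not made with TMM scaling, with edgeR or without control replicate 1, and its 3' end overlaps Acvr2a on the other strand. Orc3 (0.87 ± 0.20, adjusted p = 0.00013) and Orc5 (0.60 ± 0.23, adjusted p = 0.022) passed the p threshold only. Orc2 changed by 0.06 and Orc6 by 0.35, neither past it.

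Helicase activation held the member with the steepest rise. Gins3 (chromosome 8: 95633453 to 95645060, plus strand), 1 of the 4 GINS subunits, stood at 13.8 and 18 RPM in control, 41.7 and 50.4 in Dox and 72.5 and 51.8 in DoxRA. It rose by 1.9 ± 0.35 in DoxRA (limma, adjusted p = 1.7e-06). The other 3 GINS genes stayed within 0.25 of control on the log2 scale in either direction, with Gins1 at -0.25, Gins2 at 0.21 and Gins4 at -0.12, none past the p threshold. Mcm10, a factor of helicase activation and origin firing, fell from 101 and 77.2 RPM to 33.8 and 55.8 (-1.01 ± 0.19, adjusted p = 1.6e-06). That call was lost without control replicate 1 or DoxRA replicate 1 (the smallest change was -0.65) and with a pseudocount of 5, and Cdc45 passed the p threshold at 0.57.

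Polymerases held the steepest fall among the members. Pola1, the catalytic subunit of polymerase alpha (chromosome X: 93304767 to 93632155, minus strand), stood at 71.2 and 59.6 RPM in control, 27.1 and 33.7 in Dox and 6.35 and 9.57 in DoxRA. It fell by 2.91 ± 0.27 in DoxRA (limma, adjusted p = 3.1e-17). Both DoxRA values lay under the 10 RPM of the filter, so Pola1 was tested through its control libraries. When 1 of these was left out, Pola1 was not tested. Its partner Pola2 was at 54 and 71.9 RPM in control and 55.2 and 58.2 in DoxRA, and the primase genes Prim1 (0.28) and Prim2 (0.56) had positive changes, that of Prim2 past the p threshold.

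Pole, the catalytic subunit of leading-strand polymerase epsilon (chromosome 5: 110286306 to 110337474, plus strand), was at 109 and 95.2 RPM in control, 216 and 228 in Dox and 324 and 403 in DoxRA. It rose by 1.82 ± 0.21 (limma, adjusted p = 1.9e-12). Pole2, the second subunit of the same enzyme, stood at 53 and 40.2 RPM in control and 5.78 and 17.5 in DoxRA, and fell by 2.07 ± 0.39 (adjusted p = 2.6e-06). The 2 subunits thus moved apart with no overlap in either gene, and Pole2, like Cdt1, lies inside a readthrough gene model. In polymerase delta, Pold2 fell from 155 and 143 to 28.6 and 35.1 RPM (-2.20 ± 0.27, adjusted p = 6.4e-12), and the catalytic subunit Pold1 changed by -0.49 ± 0.23 (adjusted p = 0.055).

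The clamp, its loader and the joining enzymes gave no call in DoxRA. Pcna, the sliding clamp, stood at 831 and 755 RPM in control, 659 and 718 in Dox and 637 and 756 in DoxRA (-0.19 ± 0.20, adjusted p = 0.41, limma). The groups overlapped at 755 to 756 RPM. Of the clamp loader genes, Rfc2 (0.55) and Rfc5 (-0.46) passed the p threshold, and Rfc1 (0.14), Rfc3 (-0.29) and Rfc4 (0.55) did not. Lig1, which seals Okazaki fragments, passed it at 0.85 ± 0.19 with 147 and 174 RPM in control and 319 and 261 in DoxRA, and Fen1, which trims their flaps, was at 134 and 106 RPM against 93 and 86.1.

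The single-strand binding complex RPA had negative changes in all 3 genes. Rpa2 was at 260 and 218 RPM in control, 242 and 252 in Dox and 126 and 141 in DoxRA (-0.83 ± 0.19, adjusted p = 8e-05, limma), past the p threshold without the size. Rpa1 went from 124 and 116 RPM to 56.3 and 47.8 and Rpa3 from 85.4 and 156 to 87.8 and 79.7, but neither passed (adjusted p = 0.16 and 0.46). The spread behind those 2 is wide: in H18 the level of Rpa1 ran from 7.33 RPM in an RA library of day 3.5 to 334 in the other library of that group.

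Dox alone gave 5 members lower and 2 higher, or 17.5% of members against 22.8% of all genes tested. Pold2 (-1.33 ± 0.27, adjusted p = 3.7e-05), Mcm7 (-1.15 ± 0.20, 3.6e-06), Pole2 (-1.12 ± 0.39, 0.018), Pola1 (-1.08 ± 0.27, 0.00081) and Mcm2 (-1.05 ± 0.16, 1.7e-07) fell, by limma. Gins3 (1.48 ± 0.35, adjusted p = 0.00043) and Pole (1.12 ± 0.21, 1.6e-05) rose. Mcm2, Pola1 and Pole2 were no longer called without control replicate 1 or without Dox replicate 1, which left 4 members in each case. Of the other members followed in full, Orc4 (0.48 ± 0.30, adjusted p = 0.22), Rpa2 (0.05 ± 0.19, 0.85), Gmnn (-0.16 ± 0.24, 0.65), Mcm5 (0.35 ± 0.21, 0.19) and Pcna (-0.20 ± 0.20, 0.45) did not pass.

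Adding RA to Dox was tested directly as DoxRA against Dox. It lowered 4 of 40 members and raised 0, where 14.9% of all genes tested were called. Cdc6 (-1.82 ± 0.32, adjusted p = 4.5e-06), Pola1 (-1.82 ± 0.27, 3.6e-08), Cdt1 (-1.29 ± 0.20, 2e-07) and Mcm2 (-1.15 ± 0.16, 1.3e-08) fell by limma, each with no overlap between the groups. Cdc6 was not called when only the groups compared were fitted, and Pola1 was not tested when 1 of the Dox libraries was left out. Rpa2 (-0.88 ± 0.19, adjusted p = 0.00015) and Mcm5 (0.70 ± 0.21, 0.0083) passed the p threshold without the size, and Pcna (0.01 ± 0.20, 0.97), Gmnn (-0.32 ± 0.24, 0.34) and Orc4 (0.60 ± 0.30, 0.13) did not pass it. Summed feeder and stroma markers were 87.8 and 574 RPM in the DoxRA libraries, 116 to 145 in Dox and 197 to 208 in control; their part in these changes was not tested.

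The same transgene was induced in other media, to a higher level. Its mCherry row averaged 6287 RPM in SerumMinusWINDox and 10340 in BMSDox at day 9, above the levels in Dox and DoxRA, so medium and transgene level cannot be told apart when these responses are set beside one another. SerumMinusWINDox against SerumMinusWIN had 6 members lower and 3 higher, 22.5% of members against 23.1% of genes. Pole2 (-1.62 ± 0.39, adjusted p = 0.00053), Mcm2 (-1.51 ± 0.16, 6.6e-13), Mcm7 (-1.22 ± 0.20, 6.4e-07), Pola1 (-1.18 ± 0.27, 0.00025), Mcm3 and Cdt1 fell by limma. Pole (1.51 ± 0.21, adjusted p = 8.5e-09), Gins3 (1.41 ± 0.35, 0.00076) and Lig1 (1.09 ± 0.19, 2e-06) rose. Without SerumMinusWINDox replicate 2, which had the lower Mcm2 (117 RPM, the other 180) and Pole2 (6.87 RPM, the other 28.9), 4 of the 9 calls were left. Pole2 was also not called by edgeR or in a fit of only the groups compared, with a change between -2.58 and -0.65 over all alternatives. Pcna was at 652 and 523 RPM against 970 and 989 (-0.74 ± 0.20, adjusted p = 0.0016), past the p threshold without the size.

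BMSDox against BMS had 1 member lower and 2 higher, 7.5% of members against 21.2% of genes. Pola2, the accessory subunit of polymerase alpha, fell (-1.10 ± 0.25, adjusted p = 0.00036), from 77.7 and 77.4 RPM to 46 and 27.5. Pole (1.31 ± 0.21, 5.8e-07) and Gins3 (1.42 ± 0.35, 0.00081) rose by limma. Without BMSDox replicate 2 neither Pola2 (adjusted p = 0.083) nor Gins3 (adjusted p = 0.064) was called, and edgeR did not call Gins3, whereas Pole was called in every alternative. Mcm2 was at 365 and 339 RPM in BMS and 220 and 181 in BMSDox, with no overlap but short of the size. TMM scaling called 5 lower and 2 higher here. It moved the median of all genes by 0.256 and the share of lower calls among all calls from 30.1 to 52.4%. Orc4 (-0.20), Cdc6 (-0.12), Pcna (-0.11), Gmnn (-0.07) and Rpa2 (0.30) were not past the p threshold.

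Members called at earlier days were counted in each medium, and whether the media differ in this was not tested. In the SerumMinusWIN medium, where protocols match, 0 members were called by limma at day 4 (all genes 3.72%, 10 members at an unadjusted p under 0.05) and 0 at day 5 (all genes 5.59%, 12 at an unadjusted p under 0.05), with edgeR not run at these days. At day 7, against 20.4% of genes, Pola1 (-1.87), Mcm2 (-1.20), Mcm7 (-1.17) and Cdt1 (-1.04) fell and Gins3 (1.75) and Pole (1.03) rose. Mcm2 was at 417 and 468 RPM in SerumMinusWIN at day 7 and 182 and 202 in SerumMinusWINDox.

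With BMS, 3 members were called at day 4 (7.5% of members, 9.32% of genes), namely Orc4 (-1.11), Cdc45 (-1.0) and Pold2 (1.38). Rpa1 alone was called at day 5 (-2.25, 2.5% of members, 11.6% of genes). At day 7 (16.7% of genes) Pola2 (-1.11), Mcm2 (-1.05), Gins4 (-1.03) and Mcm7 (-1.02) fell. The early calls of Orc4, Cdc45 and Pold2 did not recur among the day 9 calls of the same contrast, whose members were Pola2, Pole and Gins3.

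In the control medium, treatment and extraction protocol cannot be told apart at day 7 for Dox. By its title, 1 of the 2 DoxRA libraries of that day shares the protocol of the controls (replicate 2, with Mcm2 at 167 RPM and Gins3 at 70.2). Another sample labelled as the same replicate had no column, so that protocol rests on the match of titles. Dox gave 5 lower and 1 higher (25.3% of genes) and DoxRA 9 lower and 1 higher (39.3% of genes), with Pola1 at -2.08, Mcm2 at -1.83, Mcm7 at -1.72 and Gins3 at 2.03 in DoxRA. Mcm2 in DoxRA stood at 453 and 421 RPM at day 4, 317 and 317 at day 5, 94.6 and 167 at day 7 and 86.6 and 80.5 at day 9, against 575 and 478, 544 and 496, 436 and 463, and 413 and 362 in control. Gins3 in DoxRA stood at 17 and 8.94 RPM at day 4 and 37 and 33.8 at day 5, above the 8.76 and 18.8 of control at day 5. The DoxRA libraries of days 4 and 5 differ in protocol from these controls, so treatment and protocol cannot be told apart there either.

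**Figure D3:**
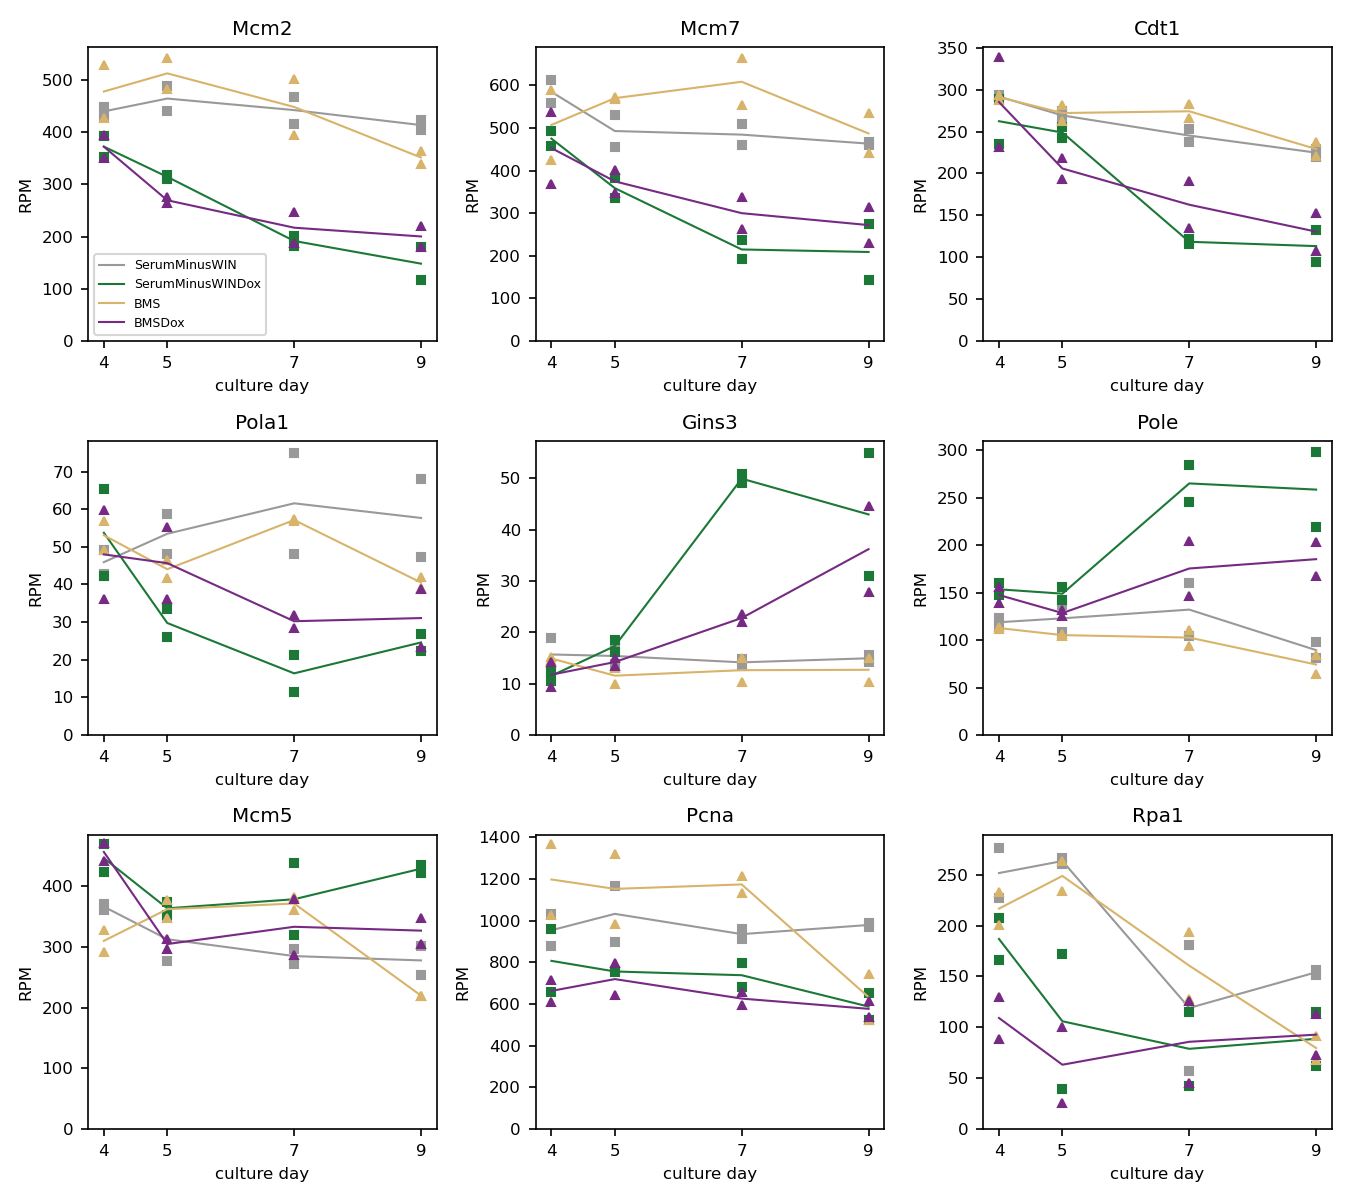
RPM by day of culture (4, 5, 7 and 9) in OE_A2, 1 point per library with lines through the group means. Panels are Mcm2, Mcm7, Cdt1, Pola1, Gins3, Pole, Mcm5, Pcna and Rpa1, and the groups are SerumMinusWIN, SerumMinusWINDox, BMS and BMSDox. Mcm2 lies lower in SerumMinusWINDox than in SerumMinusWIN at day 7, and lower in BMSDox than in BMS at day 9.

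In uninduced cultures the members' levels changed over time as well. Between days 4 and 9 of OE_A2 control, all under 1 extraction protocol, limma called 0 members (10.5% of genes, 18 members at an unadjusted p under 0.05, edgeR 1). The median member change was -0.37, beside 0.07 for all genes, and 30 of 40 members were negative. The summed level went from 7786.9 and 7878.0 RPM to 5892.5 and 6181.1. In the 4 knockout clones limma called 0 as well (9.73% of genes, 15 at an unadjusted p under 0.05, edgeR 0). Several members passed the p threshold there without the size, among them Rfc3 (-0.65), Pcna (-0.59 ± 0.10, adjusted p = 4.3e-07), Mcm5 (-0.53 ± 0.10, 1.3e-05), Gins4 (-0.51) and Pold2 (0.69).

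In the parental H18, RA was added to BMP2. At day 9, B2RA against BMP2 had 4 members lower and 1 higher, 12.5% of members against 16% of genes. Mcm2 was at 280 and 444 RPM in BMP2 and 131 and 182 in B2RA and fell by 1.19 ± 0.16 (limma, adjusted p = 1.1e-08). Cdt1 (-1.31 ± 0.20, adjusted p = 2.8e-07), Rpa2 (-1.06 ± 0.19, 8.3e-06) and Rpa1 (-2.11 ± 0.74, 0.028) also fell, and Gins3 rose (1.32 ± 0.35, 0.0027) from 57.5 and 19.4 RPM to 83.4 and 87.8.

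These H18 calls rested on single libraries. EdgeR made 0 of the 5 (16 members at an unadjusted p under 0.05 in limma), and leaving out 1 of the 4 libraries gave between 1 and 9, with 1 left without BMP2 replicate 2 or B2RA replicate 1 and 9 without BMP2 replicate 1 or B2RA replicate 2. Cdc6 (-0.04), Gmnn (-0.01), Orc4 (0.24), Pcna (-0.36) and Mcm5 (0.35) did not pass the p threshold. Gonadal soma markers summed to 9.48 and 11.8 RPM in BMP2 and 37.0 and 199.6 in B2RA, with Amh, Foxl2 and Cyp17a1 at 0 in the latter, and feeder and stroma markers to 146 and 390 against 220 and 776. Their part in these changes was not tested. At day 5 limma called 0 members (0.218% of genes, 1 at an unadjusted p under 0.05) and at day 7 0 (4.53% of genes, 7 at an unadjusted p under 0.05), and edgeR was not run at those days.

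Loss of Stra8 from the induced line was tested as the difference of the DoxRA responses. OESko_A11 DoxRA against its own control had 2 members lower and 1 higher (7.5% of members, 20.0% of genes): Mcm10 fell (-1.09 ± 0.19, adjusted p = 2e-06) and Mcm7 fell (-1.04 ± 0.20, 2.8e-05), and Pole rose (1.04 ± 0.21, 7e-05), by limma. The Pole call was lost with TMM scaling, with edgeR and without DoxRA replicate 1 or control replicate 2, that of Mcm7 without DoxRA replicate 1 and that of Mcm10 without control replicate 1. The OESko_A11 minus OE_A2 difference was called for 9 members, 3 lower and 6 higher (22.5%, against 20.0% of genes). Pola1 differed most, with 65 and 55.5 RPM in OESko_A11 control and 30.5 and 32.9 in DoxRA, where OE_A2 went to 6.35 and 9.57, a difference of 2.01 ± 0.38 (adjusted p = 2.5e-05). Pold2 differed by 1.9 ± 0.38 (6e-05), Cdc6 by 1.62 ± 0.46 (0.0058), Pole2 by 1.55 ± 0.55 (0.032), Cdt1 by 1.42 ± 0.29 (6.9e-05) and Mcm2 by 1.41 ± 0.23 (1.3e-06), their falls being smaller in OESko_A11.

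The members with a more negative response in OESko_A11 were Orc1 (-1.65 ± 0.33, adjusted p = 7.3e-05), Gins3 (-1.34 ± 0.50, 0.039) and Mcm5 (-1.19 ± 0.29, 0.0014), by limma. Mcm5 was at 323 and 300 RPM in OESko_A11 control and 260 and 304 in DoxRA, and Orc1 at 68.9 and 57.6 against 53.3 and 37.3. Within OESko_A11 none of these 3 was called, with a change of 0.56 for Gins3, -0.15 for Mcm5 and -0.49 for Orc1. Cdc6, Gins3 and Pole2 lost the call in a fit of only the groups compared and without single libraries (Cdc6 without replicate 1 of either DoxRA group), and Gins3 and Pole2 also in edgeR. Feeder and stroma markers summed to 235 and 293 RPM in OESko_A11 control and 497 and 701 in DoxRA, and OESko_A11 is 1 clone, so the clone and the genotype cannot be told apart. With TMM scaling the OESko_A11 response had 6 members lower and 0 higher, as it moved the all-gene median by 0.205 and the lower share of all calls from 32.8 to 50.4%. At day 5 only Cdc6 was called (-1.08, 9.49% of genes) and at day 7 limma called 0 (6.43% of genes, 10 at an unadjusted p under 0.05, edgeR not run). One DoxRA library of day 5 had the highest summed level of the members, 10178.2 RPM (the other 7315.9), with Mcm6 at 1051 against 384 RPM.

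The Zglp1-/- clones, averaged as a pair, showed no called member against their own controls. BMP2 against control gave 0 by limma (1.46% of genes, 0 at an unadjusted p under 0.05, edgeR 0). B2RA against control gave 0 (11% of genes, 13 at an unadjusted p under 0.05, edgeR 0). Cdc6 came closest in B2RA at -0.99 ± 0.23 (adjusted p = 0.0005), with 7.1 RPM in Zko_E5 replicate 2, a shallow library of 985914 reads, and 49.3, 40.8 and 41.4 in the other 3. Taken alone, Zko_E5 had 2 members lower in B2RA (5.0% of members, 12.4% of genes), Cdc6 (-1.53 ± 0.32, adjusted p = 0.00021) and Prim2 (-1.36 ± 0.24, adjusted p = 1.2e-05), by limma. Prim2 was at 38.4 and 56.9 RPM in its control and 33.5 and 9.13 in B2RA, again with the low value in replicate 2. Zko_G10 alone had 0 called (8.04% of genes). Mcm2 was at 420, 432, 493 and 403 RPM in control and 349, 280, 370 and 502 in B2RA.

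In the Stra8-/- clones as a pair B2RA against control also gave 0 calls (20.8% of genes, 18 at an unadjusted p under 0.05, edgeR 1). Sko_B6 alone had Gins3 higher (1.22 ± 0.35, limma, adjusted p = 0.0055, 17.9% of genes called), from 8.38 and 11.9 to 21.6 and 27.9 RPM, and Sko_F6 alone had 0 called (18.7% of genes). Whether the clones of a pair differ from each other was not tested. Rpa2 was at 225, 201, 245 and 196 RPM in control and 402, 339, 423 and 389 in B2RA, a change of 0.84 ± 0.13 (limma, adjusted p = 1.2e-07, n = 4 per group) under the size threshold. Every B2RA library was above every control library. In OE_A2 DoxRA against control and in H18 B2RA against BMP2 the change of Rpa2 was negative, at -0.83 and -1.06. Treatments or references differ between these responses, and whether the responses of Rpa2 differ was not tested. The H18 call of Rpa2 was lost in edgeR, in a fit of only the groups compared, and without B2RA replicate 1 or BMP2 replicate 2. TMM scaling moved the lower share of all calls from 24.4 to 41.8% in the Stra8-/- pair and from 39.5 to 53.3% in the Zglp1-/- pair.

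The B2RA responses of the 2 knockout pairs differed in 2 members (8.04% of genes, 5.0% of members). Pola2 was at 104 to 135 RPM in Stra8-/- control and 62.0 to 72.1 in B2RA, and at 90.3 to 111 and 100 to 160 in the Zglp1-/- pair, a difference of 1.07 ± 0.25 (limma, adjusted p = 0.002). Pola1 differed by 1.02 ± 0.27 (adjusted p = 0.0063), with 56.6 to 87.7 RPM and 33.3 to 60.8 in the Stra8-/- pair against 33.5 to 59.8 and 54.1 to 70. Both calls lay near the size threshold, and leaving out single libraries left between 1 and 3 members.

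Against H18 under B2RA the Zglp1-/- clones differed in 13 members, 6 lower and 7 higher (32.5% of members, 36.4% of genes). Gins3 was the furthest, at 21.6, 10.1, 18.7 and 13.8 RPM where H18 had 83.4 and 87.8 (-2.39 ± 0.30, limma, adjusted p = 5.2e-11). Lig1 (-1.23), Prim2 (-1.15), Pole (-1.14), Mcm5 (-1.08 ± 0.18, adjusted p = 2e-07) and Orc1 (-1.06) were lower too. Rpa1 (2.22 ± 0.64, 0.0023), Mcm10 (1.26 ± 0.16, 7.8e-11), Mcm2 (1.24 ± 0.14, 8.3e-13), Mcm7 (1.22), Pola1 (1.20), Cdt1 (1.20) and Pola2 (1.03) were higher. Mcm2, Gins3, Pola1 and Lig1 were called in every alternative. Prim2 was not called by edgeR or in a fit of only the groups compared, Orc1 not with TMM scaling and Pola2 not with a pseudocount of 5, and each of these 3, like Rpa1, Mcm5, Mcm7, Mcm10, Cdt1 and Pole, lost its call when 1 of the libraries was left out. Those libraries were H18 replicate 1 (Cdt1, Mcm7, Mcm10 and Pola2), H18 replicate 2 (Orc1, Mcm5, Pole and Rpa1), Zko_E5 replicate 1 (Cdt1), Zko_E5 replicate 2 (Mcm5, Pola2 and Prim2) and Zko_G10 replicate 1 (Pola2). Under BMP2 alone the change against H18 was -1.07 for Gins3, 1.06 for Mcm7 and 1.03 for Pola2.

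The Stra8-/- clones differed from H18 under B2RA in 6 members, 1 lower and 5 higher (15.0% of members, 24.8% of genes). Gins3 was again lower (-2.00 ± 0.30, limma, adjusted p = 5.1e-08), at 17.2 to 27.9 RPM. Rpa1 (2.40 ± 0.64, 0.0016), Cdt1 (1.41 ± 0.17, 1.1e-10), Pold2 (1.34 ± 0.23, 1.3e-06), Rpa2 (1.09 ± 0.16, 4.3e-08) and Mcm7 (1.04) were higher. Both knockout comparisons share the H18 libraries, so likeness between them is not independent, and the Rpa1 call of each was lost without H18 B2RA replicate 2. Among the Stra8-/- calls Rpa2 was lost without H18 replicate 1, and Mcm7 without H18 replicate 1 or replicate 2 of Sko_B6 or of Sko_F6.

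In embryos, with 1 library per stage and no test, the oocytes at E14.5 were set against the E9.5 germ cells. Past 2-fold, 15 members were lower and 5 higher, while 25.0% of genes were lower and 31.3% higher. The median was -0.44 for members and 0.17 for all genes at 10 RPM or more. Mcm7 went from 627 to 119 RPM, Cdc6 from 39.9 to 7.58, Cdt1 from 194 to 45.5 and Mcm2 from 465 to 126, while Gins3 went from 19.4 to 107, Pole from 109 to 351 and Orc1 from 41.9 to 111. Mcm5 was at 389 RPM at E9.5, 417 at E14.5 and 420 at E15.5, close to level where Mcm2, Mcm3, Mcm4, Mcm6 and Mcm7 were all past 2-fold lower. Pola1 (53.8 to 37.9 RPM) and Pold2 (34.4 to 32.7) did not reach 2-fold, unlike in DoxRA. For E15.5 against E14.5 the median was -0.09 for members and -0.02 for all genes at 10 RPM or more. For E15.5 against E9.5 it was -0.51 for members and 0.17 for all genes at 10 RPM or more.

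Set beside DoxRA in OE_A2, which shares no sample with the embryos, the 40 members' changes had a Pearson correlation of 0.74, a description across genes that are not independent, and all 8567 genes tested in both gave 0.765. All 14 called members had the same sign in both, beside 91.5% of all called genes. For H18 B2RA 4 of 5 called members had the same sign, beside 93.8% of all called genes. The members' likeness was thus near that of genes at large.

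**Figure D4:**
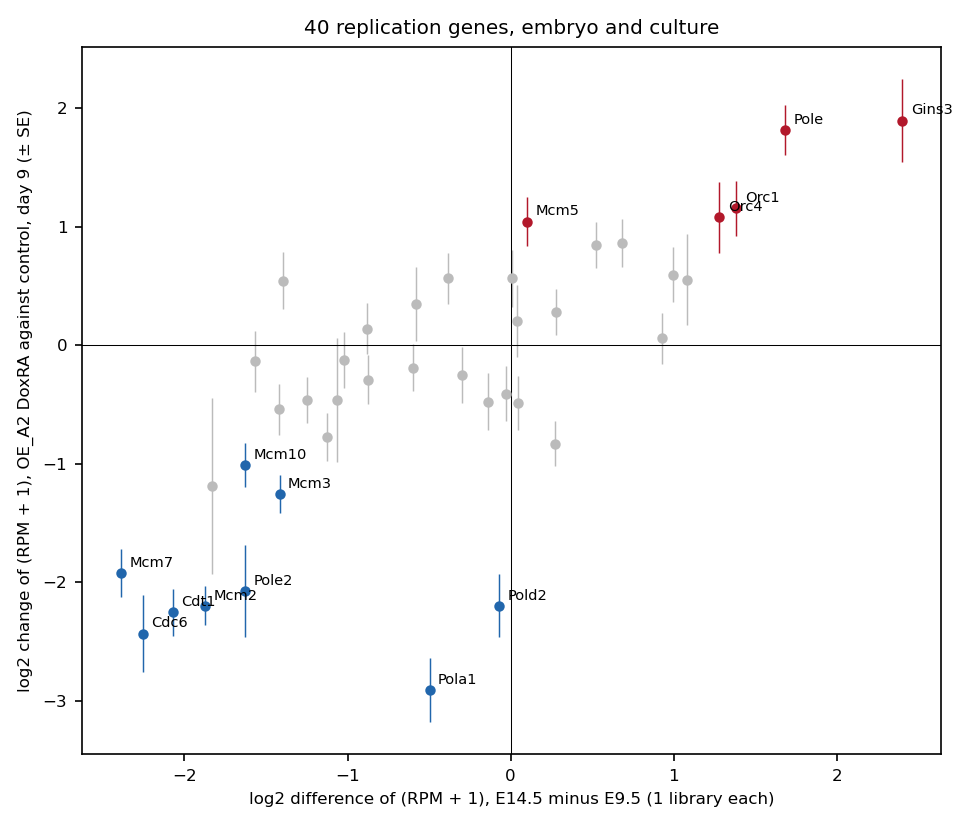
Log2 difference between E14.5 and E9.5 (1 library each) against the log2 change in OE_A2 DoxRA at day 9, 1 point per member. Mcm7, Cdc6, Cdt1 and Mcm2 lie low on both axes and Gins3 and Pole high on both.

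Neighbouring pathways were counted in DoxRA against control from lists of genes that are not members, beside 48.2% of all genes tested. Of 29 other fork, checkpoint and chromatin assembly genes tested, 3 fell and 7 rose (median 0.29), led by Rnaseh2a (-2.64), a subunit of the RNase that removes RNA from DNA, the histone chaperone Asf1b (2.16) and the firing factor Ticrr (1.84). Of 10 nucleotide supply genes 6 fell and 1 rose (median -1.41): Shmt1 (-3.36), Tyms (-2.34), the thymidylate synthase, and Rrm2b (2.15), a ribonucleotide reductase subunit. Of 11 E2F and RB family genes tested 3 fell and 0 rose (median -0.56), namely E2f7 (-2.34), E2f6 (-1.99) and E2f8 (-1.76), all known as repressors, while 2 other members of the family known as repressors were not called, E2f4 (0.69) and E2f5 (0.05). Of 2 MCM relatives tested, Mcm8, a helicase of recombination, rose (1.60). Of 15 G2 and M phase genes 6 fell and 2 rose (median -0.34), and of 14 meiotic prophase genes 13 rose (median 4.54).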

How the data were processed

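The authors deposited 1 table of gene levels in RPM, with 25706 endogenous genes and 3 transgene rows. Columns whose transgene rows lift the total are a signal on the same scale, as deposited. HTSeq 0.9.1, SAMtools 1.3, Bowtie 1.1.2, TopHat2 2.1.0, cutadapt 1.9.1 and build mm10 are named in the submitters' processing notes. The role of each tool, the annotation and the strand setting are not given in the sources used here, so reads of a gene and an overlapping antisense gene may not be separated, and copies made by PCR were not removed. Of 195 value columns 194 matched a labelled sample, the 1 that matched none was left out, and 2 samples matched no column. In 3 lines an extra cell was removed. Values were whole multiples of 1 read within 0.05 for 100% of values, so reads were recovered for edgeR.

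The members and all gene lists were chosen with earlier results of these data known. One limma 3.58.1 model (R 4.3.3, trend and robust) was fitted to log2(RPM + 1) of 191 cultured libraries in 98 groups. A gene was tested when 2 of the libraries compared reached 10 RPM. It was called when its Benjamini-Hochberg adjusted p over all genes tested was under 0.05 and its change at least 1. Pairs of clones were averaged with equal weight. The text names all members, gives Pcna, Mcm5, Cdc6, Gmnn, Rpa2 and Orc4 in full, and in each day 9 comparison up to 4 called members of largest change and called members against the majority. Values of other members beside these were picked after they were seen. Replicate numbers come from the labels. Over the groups of a comparison, deviations of same-numbered libraries correlated at 0.132 to 0.275 in the Zglp1-/- BMP2 and 0.115 to 0.396 in the Stra8-/- B2RA comparison and fell to -0.223 elsewhere, so the numbers were not used as pairs in the fit. In simulated data for DoxRA against control at day 9 (9056 genes) limma recovered 68, 94 and 96% of genes changed by 1.5, 2 and 3 on the log2 scale and called 0.169% of unchanged genes. Every simulated gene had the same dispersion, and 50 genes were changed per size, whereas 48.2% of genes were called in the real comparison. Changes of 1, the size threshold, were also simulated, but their recovery was not counted. These rates may therefore not hold for the real data. Alternatives were other pseudocounts, no filter, TMM factors, a fit of only the groups compared, a replicate term, edgeR 4.0.16, no size threshold and each library left out. Gene positions are from GENCODE and promoters from RefSeq.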

Additional observations from a re-analysis of the deposited data

Results flagged for a closer look

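The response to DoxRA at day 9 differed between OESko_A11 and OE_A2 in 9 members, by a limma test of the difference itself. Given as OESko_A11 minus OE_A2 on the log2 scale, the differences were -1.65 for Orc1, -1.34 for Gins3, -1.19 for Mcm5, 1.41 for Mcm2, 1.42 for Cdt1, 1.55 for Pole2, 1.62 for Cdc6, 1.9 for Pold2 and 2.01 for Pola1. The response to B2RA differed between the Zglp1-/- and the Stra8-/- pair of clones in 2 members, with 1.02 for Pola1 and 1.07 for Pola2 (Zglp1-/- minus Stra8-/-). Groups of 2 libraries are too small for a check of single libraries that stand far from the rest.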

How the results depend on the processing

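Of 236 recounts of called members over 16 day 9 comparisons, 48 moved by more than 1.5 times, and no called change turned its direction in any of 9436 recomputed gene values. Of 75 calls of a member in a comparison 34 held in every alternative in which the member was tested. The replicate block (a term for the replicate number) and dropping the filter on low values left every count as reported: for example 14 members in OE_A2 DoxRA with the replicate block.

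Without the size threshold the counts were 15 for OE_A2 Dox, 24 for DoxRA, 12 for DoxRA against Dox, 16 for SerumMinusWINDox, 14 for BMSDox, 13 for OESko_A11 DoxRA, 15 for H18 B2RA, 8 for the Zglp1-/- and 13 for the Stra8-/- B2RA response, 22 and 20 for these pairs against H18, and 5 and 13 for control day 9 against day 4 in OE_A2 and in the knockout clones. All genes had calls at this setting too, lower and higher, of those tested. These were 1399 and 1866 of 9372 in OE_A2 Dox, 2747 and 3177 of 9517 in DoxRA and 1128 and 1313 of 9594 in H18 B2RA. The recounts in this section show how calls depend on settings. They do not set the members apart from genes at large. TMM scaling gave 7 for BMSDox, 6 for OESko_A11 DoxRA and 1 each for the B2RA responses of the Zglp1-/- and Stra8-/- pairs. EdgeR gave 6 for BMSDox, 8 for OESko_A11 DoxRA, 0 for H18 B2RA, 1 for the Stra8-/- B2RA response and 1 for OE_A2 control over time. A fit of only the groups compared gave 2 for H18 B2RA, 1 for the difference between the pairs' B2RA responses and 1 for OE_A2 control over time. A pseudocount of 0.5 gave 1 for the Zglp1-/- B2RA response, and a pseudocount of 5 gave 1 for the difference between the pairs. The cause was not tested. At days 3.5 to 7, 8 of 159 counts moved, each by at most 1 call.

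Leaving out 1 library, with the lone sample assumed to vary like the other groups, gave 4 to 7 for OE_A2 Dox (4 without control or Dox replicate 1), 4 to 11 for SerumMinusWINDox (4 without its replicate 2), 2 to 6 for BMSDox (6 without BMSDox replicate 1, 5 without BMS replicate 2), 1 to 9 for H18 B2RA, 0 to 2 for the Zglp1-/- B2RA response (1 and 2 without Zko_E5 control and B2RA replicate 1) and 1 to 3 for the difference between the pairs (1 without any of 10 libraries). OE_A2 DoxRA gave 11 to 15, DoxRA against Dox 3 to 6, OESko_A11 DoxRA 2 to 4, its difference from OE_A2 7 to 10, and the Zglp1-/- and Stra8-/- pairs against H18 9 to 13 and 5 to 9. Depth limits the low members: in OE_A2 DoxRA at day 9 Cdc6 rested on 18 and 13 reads and Pola1 on 22 and 12.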
